A study of Mus musculus with 4 samples.

Results

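The effect of stroke was examined in mice that were already hypertensive when the stroke was made, by comparing HT + Stroke with HT + Sham. Photothrombosis closes small cortical vessels by light activation of a dye in the blood, and leaves a local infarct that is surrounded weeks later by reactive astrocytes, phagocytic microglia and a fibrotic scar. Angiotensin II raises blood pressure and acts on vessels, and infusion by osmotic pump is a common model of hypertension. Each sample was a coronal slice through the prefrontal cortex, so that RNA from the infarct, the surrounding cortex and neighbouring regions was sequenced together. In such bulk samples fewer cells of a type and less RNA per cell cannot be told apart.

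All mice were male C57BL/6J aged 3 to 5 months. In both groups angiotensin II was infused over 28 days (daily dose 0.28 mg/kg). The stroke or the sham procedure was made on day 7 of the infusion, and tissue was taken on day 28. There were 6 libraries in HT + Sham and 6 in HT + Stroke, 12 of the 24 of the series, and a library was taken as 1 animal, since each of the 4 groups is deposited as 1 sample with 6 numbered libraries. The other 12 libraries were from NT + Sham and NT + Stroke mice, which received saline, and were used here only to set the same contrast in normotensive mice beside the hypertensive one. The labels name no animals, batches or dates, so p-values measure the spread between these libraries and batches could not be examined.

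Total counts of the HT + Sham libraries ran from 16848048 to 19531058, with a median of 17184496. Those of HT + Stroke ran from 15922855 to 20621370, with a median of 18871634, and the totals did not differ beyond their spread (exact two-sided permutation test, P = 0.264, smallest possible P 0.00216). CPM is the read count scaled by the total of its library and by a TMM factor, which corrects for composition. The tissue held cortical neurons by its markers. *Slc17a7*, the vesicular glutamate transporter of cortical projection neurons, had a lowest, median and highest CPM of 2175, 2602 and 3100 in HT + Sham. 3 of the 12 mice stood apart from their groups. Mouse 6 of HT + Sham had *Gfap*, the intermediate filament of reactive astrocytes, at 550 CPM, against 162 to 242 in the other 5 sham mice. Its mean level of 22 of 33 gene lists lay above that of all 5 others. Among the sham mice it also had the highest mean level of olfactory bulb genes and the lowest of striatal genes (5.60 and 3.85 as log2(CPM + 1)). Mice 1 and 6 of HT + Stroke had *Gfap* at 249 and 231 CPM, where the other 4 stroke mice had 919 to 1344. For 17 and 15 of the 33 lists these 2 mice lay within the range of the 5 sham mice, against 2 to 5 lists for the other 4. Counts of genes that passed are therefore also given without mouse 6 of HT + Sham.

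Of 16741 genes tested, 108 (0.645%) had an adjusted P under 0.05 by edgeR's quasi-likelihood test with Benjamini-Hochberg adjustment. They comprised 91 upregulated genes (0.544%) and 17 downregulated genes (0.102%). The log2 fold changes of these 108 genes ran from −0.70 to 2.88. In 28 the change was at least 2-fold, all of them upregulated. Without mouse 6 of HT + Sham, 150 of 16858 genes (0.890%) passed, 123 upregulated (0.730%) and 27 downregulated (0.160%). The same 85 genes passed in both fits, which is 78.7% of the first set and 56.7% of the second. An unadjusted P under 0.05 was found for 2842 genes (17.0%), where 837.1 would be expected if no gene differed. The median log2 fold change of all genes was 0.0007.

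**Figure D1:**
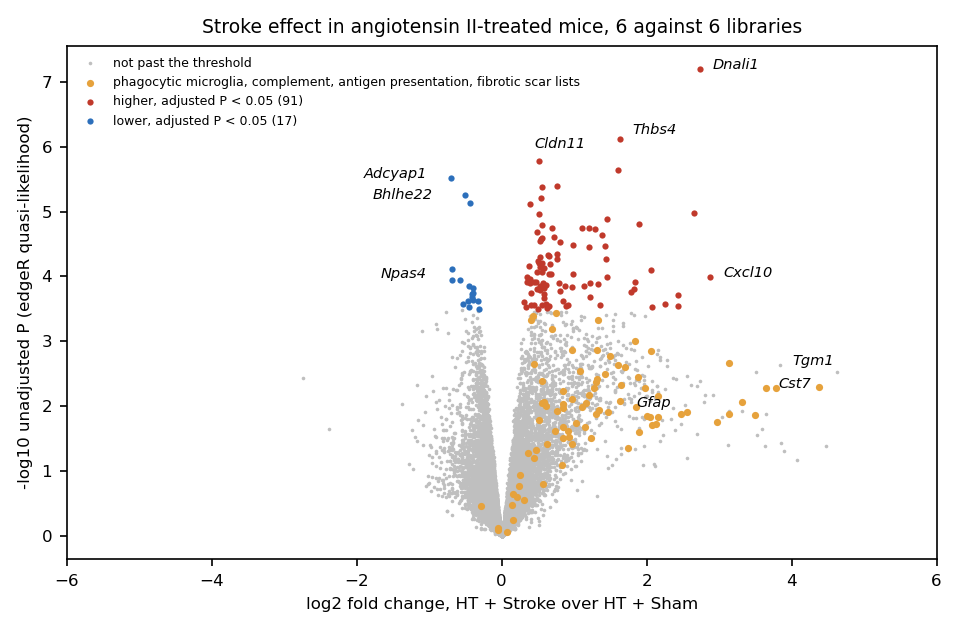
Each point is 1 of the 16741 genes tested, by its log2 fold change in HT + Stroke over HT + Sham (x axis) and −log10 of its unadjusted P (y axis). Red points are the 91 upregulated and blue the 17 downregulated genes, orange points are members of 4 injury-related gene lists, and the largest fold changes, among them *Tgm1* and *Cst7*, lie below the threshold.

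Most of the genes with the largest changes did not pass. Of 78 genes with a log2 fold change of at least 2, 8 passed, a larger share than the 0.645% of all genes tested. For 53 of the 78, mice 1 and 6 were the 2 lowest stroke mice, and for 60 of them mouse 6 was the highest sham mouse. Of the 91 upregulated genes, 83 were higher in mouse 1 of HT + Stroke than in all 6 sham mice and 87 were higher in mouse 6. Mouse 5 was above all 6 sham mice for 75 of them, the fewest. These genes were chosen by the same difference, so the counts are a description. The 12 largest increases and 8 decreases named below were also chosen for no overlap with the 5 sham mice other than mouse 6. Their separation from those 5 was fixed by the choice and is no support. In 71 of the 108 genes the 6 stroke and the 6 sham mice did not overlap, 59 of them upregulated and 12 downregulated, against 192 (1.15%) of all genes tested. For stroke mice against the 5 other sham mice, 412 genes (2.44%) did not overlap. How many genes passed depended on single mice. It was 9 without mouse 3 of HT + Sham or without mouse 2 of HT + Stroke, 14 without mouse 1, 18 without mouse 4 and 50 without mouse 2 of HT + Sham, and 25 without mouse 4 of HT + Stroke. It was 207 without mouse 5, 295 without mouse 6 and 533 without mouse 1 of HT + Stroke. The count was 889 by DESeq2 (4.54% of the 19595 genes with an adjusted P), 677 higher (3.45%) and 212 lower (1.08%). It was 1125 when all 4 groups shared 1 estimate of the spread, the 4-group fit (6.39% of 17608), 839 higher (4.76%) and 286 lower (1.62%). Both sets included all 108 genes. The counts of list members that follow are to be read against these shares, and against 17.0% at an unadjusted P.

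**Figure D2:**
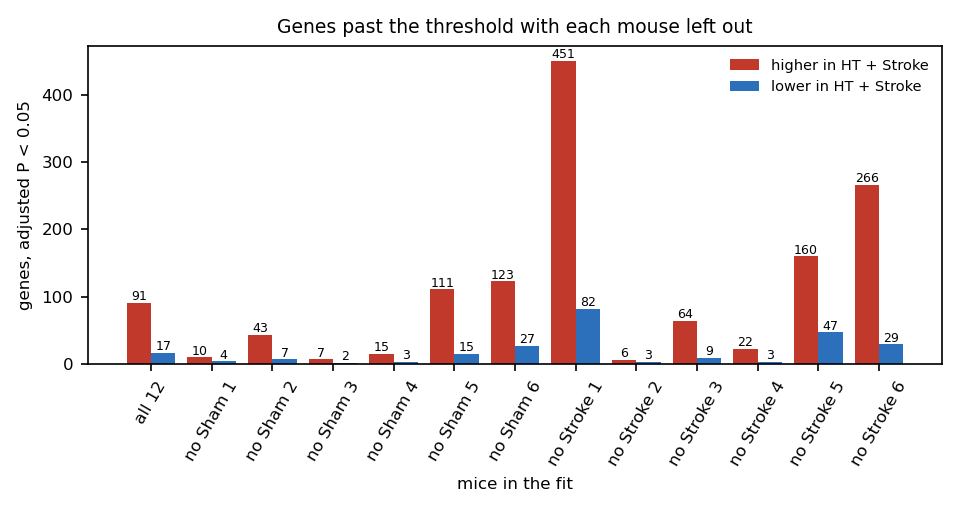
Bars give the number of genes with an adjusted P under 0.05 (y axis) that were higher (red) or lower (blue) in HT + Stroke, with all 12 mice and after leaving out single mice (x axis). The counts fall to 10 or fewer upregulated genes without mouse 1 or 3 of HT + Sham or mouse 2 of HT + Stroke, and rise to 451 without mouse 1 of HT + Stroke.

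Genes of motile cilia, the beating appendages of the ependymal cells that line the ventricles, were among those that rose. *Dnali1* (ENSMUSG00000042707, chromosome 4, 125055338 to 125065703, minus strand), a light chain of ciliary dynein, had the smallest adjusted P of all genes and is named here after its values were seen. Its lowest, median and highest CPM were 0.123, 0.329 and 0.601 in HT + Sham and 1.81, 2.44 and 3.1 in HT + Stroke. The sham values stand for few reads per library, which limits how well the size of the change is known. Every stroke mouse was above every sham mouse (log2 fold change 2.74, SE 0.292, adjusted P = 0.00106). *Ccdc153* (ENSMUSG00000070306, chromosome 9, 44240676 to 44247306, plus strand), which encodes a part of the complex that regulates ciliary dynein, was 0.1, 0.557 and 1.98 CPM in HT + Sham and 3.16, 4.6 and 6.83 CPM in HT + Stroke, as lowest, median and highest mouse. The groups did not overlap, although sham mouse 5 was higher than its group (log2 fold change 2.66, SE 0.410, adjusted P = 0.0141). Its lowest sham value likewise stands for few reads. *Foxj1* (ENSMUSG00000034227, chromosome 11, 116330704 to 116335399, minus strand), the transcription factor that directs the making of motile cilia, was 7.02, 8.66 and 10.3 CPM and 12.9, 16.7 and 27.7 CPM in the same order. All 6 stroke mice were again above all 6 sham mice, mice 3 and 4 by the most (log2 fold change 1.11, SE 0.183, adjusted P = 0.0156).

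*Tmem212*, a marker of ependymal cells, had at most 15 counts in a sham mouse and 20 to 54 in stroke mice (log2 fold change 2.43, adjusted P = 0.0475). *Cfap126*, a protein of ciliary basal bodies, was 0.711, 1.39 and 1.7 CPM and 2.21, 2.56 and 4.72 CPM as lowest, median and highest mouse (log2 fold change 1.22, SE 0.257, adjusted P = 0.0408). *Cfap161*, *Drc7* and *Ak7*, which were named after their values were seen and encode axonemal proteins, also passed, with log2 fold changes of 1.89, 1.84 and 2.43. Of 11 genes in the list of choroid plexus and ependyma, 6 could be tested, and 3 of these rose (*Ccdc153*, *Foxj1* and *Tmem212*), as they did without mouse 6 of HT + Sham, while DESeq2 and the 4-group fit each called 4. The remaining 5 had too few counts, among them *Ttr*, the main secreted product of the choroid plexus, with 1 to 23 counts in sham mice and 4 to 14 in stroke mice. The summed CPM of the 11 genes was 15.7 to 19.4 in HT + Sham and 28.3 to 58.2 in HT + Stroke, and *Ttr* had 23 counts or fewer in each mouse.

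*Thbs4* (ENSMUSG00000021702, chromosome 13, 92751590 to 92794818, minus strand), a secreted matrix glycoprotein, had the smallest adjusted P of the genes named by the rule. Its CPM was 3.92, 4.81 and 6.91 in HT + Sham and 8.74, 15 and 22.7 in HT + Stroke, as lowest, median and highest mouse. The groups did not overlap, with mouse 6 the lowest of HT + Stroke and mouse 6 the highest of HT + Sham (log2 fold change 1.63, SE 0.206, adjusted P = 0.00627). *Thbs4* passed in each of the 12 fits that left out 1 mouse, as did *Dnali1*, *Cldn11*, *Dmkn*, *Adcyap1* and *Bhlhe22*. *Itga5*, the integrin subunit that pairs in the fibronectin receptor, was 4.16, 6.8 and 8.88 CPM in HT + Sham and 9.89, 15.3 and 20.9 CPM in HT + Stroke. Every stroke mouse exceeded every sham mouse (log2 fold change 1.21, SE 0.199, adjusted P = 0.0156).

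Of 15 genes of mature oligodendrocytes, which wrap axons in myelin, 6 rose, by small amounts. *Cldn11* (ENSMUSG00000037625, chromosome 3, 31149920 to 31164324, plus strand), the claudin of myelin tight junctions, was 104, 111 and 133 CPM in HT + Sham and 146, 165 and 168 CPM in HT + Stroke. Mouse 1 was lowest among stroke mice and was still above the highest sham mouse, mouse 5 (log2 fold change 0.51, SE 0.0702, adjusted P = 0.00924). *Mag* (ENSMUSG00000036634, chromosome 7, 30899176 to 30914873, minus strand), an adhesion protein of the inner myelin layer, was 143, 152 and 176 CPM and 189, 227 and 256 CPM in the same order, without overlap (log2 fold change 0.54, SE 0.0828, adjusted P = 0.0115). *Cnp* (ENSMUSG00000006782, chromosome 11, 100574904 to 100591729, plus strand), an enzyme of non-compact myelin, was 281, 310 and 404 CPM and 416, 471 and 533 CPM (log2 fold change 0.56, SE 0.0919, adjusted P = 0.0156). The gene overlaps *Dnajc7* on the opposite strand, and whether the counting used strand is not given in the sources used here.

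*Mbp*, the basic protein that compacts myelin, was 2000, 2125 and 2484 CPM in HT + Sham and 2590, 3080 and 3244 CPM in HT + Stroke. Mouse 3, the stroke mouse with the highest *Gfap*, had the least *Mbp* of its group, and no stroke mouse overlapped with sham (log2 fold change 0.49, SE 0.0825, adjusted P = 0.0163). All 15 myelin genes were tested, 0 fell, 9 did not pass and 15 had a fold change above 0, while DESeq2 and the 4-group fit each called 9. Beside the 4 above, these were *Mog* and *Myrf*, a surface glycoprotein and the transcription factor of myelin, named after their values were seen. For 5 of the 6 genes, all but *Mog*, stroke and sham mice did not overlap. The median log2 fold change of the list was 0.49, and without mouse 6 of HT + Sham it was 0.47 with 6 genes again passing. *Bcas1*, which marks newly formed oligodendrocytes, rose from a median of 118 to 173 CPM (log2 fold change 0.51, SE 0.0951, adjusted P = 0.0272), and was the only one of 12 oligodendrocyte precursor genes to pass with edgeR, where DESeq2 and the 4-group fit each called 3. *Trf*, the iron carrier transferrin, which oligodendrocytes make, was 24.7, 29 and 39.7 CPM and 41.8, 48.9 and 70.8 CPM (log2 fold change 0.80, SE 0.138, adjusted P = 0.0183), and was the 1 gene of 18 tested for iron and heme that passed with edgeR, where DESeq2 called 3 and the 4-group fit 6. Its locus overlaps a read-through gene on the same strand.

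Values of markers of neighbouring brain regions are given beside these genes. Of 13 genes of striatal projection neurons, which lie beneath the prefrontal white matter, 13 had a fold change above 0, with a median log2 fold change of 1.29, 1.09 without mouse 6 of HT + Sham. None passed with edgeR, while 12 had an unadjusted P under 0.05, DESeq2 called 9 and the 4-group fit 3. Their summed CPM was 445 to 1499 in HT + Sham and 1149 to 3423 in HT + Stroke. *Drd2*, the dopamine receptor of indirect-pathway striatal neurons, was 2.35, 16.6 and 34.1 CPM in HT + Sham and 29, 74.6 and 110 CPM in HT + Stroke. Mouse 6 was the lowest sham mouse, and the groups overlapped (log2 fold change 2.02, SE 0.510, adjusted P = 0.0926). Of 10 genes of the olfactory bulb, 10 had a fold change below 0, with a median of −0.75, or −0.43 without mouse 6, and 0 passed with edgeR, 2 at an unadjusted P under 0.05, 1 with DESeq2 and 1 in the 4-group fit. Their summed CPM was 170 to 655 in HT + Sham and 72 to 407 in HT + Stroke. *Syndig1l*, which is abundant in striatum, was itself among the genes that rose (log2 fold change 1.43, SE 0.226, adjusted P = 0.0193), with 19.3, 28.5 and 40.5 CPM in HT + Sham and 42.7, 76.1 and 106 CPM in HT + Stroke. With the mean striatal level of each mouse as a covariate, an alternative added after the data were seen, 3 genes passed, of which 2 (*Dnali1* and *Thbs4*) were among the 108, and 0 of the 15 myelin genes passed. In that fit *Mag* had a log2 fold change of 0.43 and *Foxj1* of 1.30. The mean striatal level was itself 3.85 to 5.94 on the log2(CPM + 1) scale in HT + Sham and 5.46 to 6.98 in HT + Stroke. In 5 stroke mice it was above every sham mouse. A fit with this covariate therefore cannot tell stroke from striatal content, and fewer genes would pass in it for either. The part of striatal tissue in the myelin and cilia results was not tested.

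The other named genes that rose are known from several cell types. *Prkcd*, a calcium-independent protein kinase C, was 6.88, 9.54 and 13.8 CPM in HT + Sham and 17.1, 20.7 and 45 CPM in HT + Stroke, without overlap (log2 fold change 1.33, SE 0.249, adjusted P = 0.0334). *Fes*, a tyrosine kinase of myeloid cells, was 4.06, 4.99 and 6.41 CPM and 5.68, 12.2 and 16.6 CPM, where only stroke mouse 6 lay below sham mouse 6 (log2 fold change 1.22, SE 0.238, adjusted P = 0.0334). *Spint1*, an inhibitor of surface serine proteases, was 1.42, 1.92 and 3.48 CPM and 4.62, 6.02 and 8.54 CPM (log2 fold change 1.45, SE 0.235, adjusted P = 0.0154). *Dmkn*, a secreted protein first known from skin, was 0.801, 1.27 and 2.1 CPM and 3.42, 4.48 and 4.71 CPM (log2 fold change 1.61, SE 0.225, adjusted P = 0.00955). For both genes all 6 stroke mice were above all 6 sham mice, where only the place of sham mouse 6 was not fixed by the rule.

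*Slc4a11*, a membrane transporter of the bicarbonate transporter family, had a median of 1.57 CPM in HT + Sham and 3.94 CPM in HT + Stroke (log2 fold change 1.29, SE 0.215, adjusted P = 0.0156). The kinase gene *Stk32a* (log2 fold change 1.21, adjusted P = 0.0193) and *2410004P03Rik* (log2 fold change 1.38, adjusted P = 0.0173) complete the 12 largest increases under the rule for named genes. In these 3 genes the groups did not overlap either.

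The downregulated genes included genes of neurons. Those named by the rule were chosen for no overlap with the sham mice other than mouse 6. *Adcyap1* (ENSMUSG00000024256, chromosome 17, 93199422 to 93205485, plus strand), which encodes the neuropeptide PACAP, was 19, 22.2 and 23.3 CPM in HT + Sham and 11, 13.3 and 16 CPM in HT + Stroke. The lowest sham mouse was above the highest stroke mouse (log2 fold change −0.70, SE 0.101, adjusted P = 0.00995). *Bhlhe22* (ENSMUSG00000025128, chromosome 3, 18054174 to 18057517, plus strand), a transcription factor of cortical projection neurons, was 27, 29.9 and 32.5 CPM and 18, 20.8 and 23.2 CPM, and again no mouse overlapped (log2 fold change −0.51, SE 0.0772, adjusted P = 0.0115). *Nov* (ENSMUSG00000037362, chromosome 15, 54745702 to 54754039, plus strand), a matricellular protein also called Ccn3, under which name the annotation holds an overlapping entry on the same strand, was 96.8, 106 and 112 CPM and 66.2, 78.2 and 82.2 CPM (log2 fold change −0.44, SE 0.0673, adjusted P = 0.0115). *Pter*, a phosphotriesterase-related enzyme, was 90.1, 110 and 130 CPM and 56.5, 74.7 and 87.7 CPM (log2 fold change −0.57, SE 0.112, adjusted P = 0.0334).

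*Npas4* (ENSMUSG00000045903, chromosome 19, 4984355 to 4989971, minus strand), a transcription factor switched on by neuronal activity, was 15.1, 21.8 and 24.5 CPM in HT + Sham and 10.5, 13 and 15.1 CPM in HT + Stroke, and the groups met at their edges (log2 fold change −0.69, SE 0.131, adjusted P = 0.0296). It was the only one of 18 immediate early genes to pass with edgeR, although 17 of the 18 had a fold change below 0 and 8 an unadjusted P under 0.05, DESeq2 called 4 and the 4-group fit 2, with a median of −0.27. *Fos*, a general marker of recent activity, was 7.11, 15.4 and 19.4 CPM and 4.67, 7 and 10.2 CPM and did not pass (log2 fold change −0.96, SE 0.270, adjusted P = 0.102). Of the remaining genes of the rule, *Cdk14*, *Sphkap* and *Syt17*, a kinase, an anchoring protein of a kinase and a synaptotagmin, fell by 0.53, 0.40 and 0.47 on the log2 scale. The noncoding gene *C730002L08Rik*, which lies opposite *Aldh1a1*, fell by 0.69 (adjusted P = 0.0334), and its reads cannot be told apart from those of *Aldh1a1* without strand. The potassium channel genes *Kcnf1* and *Kcnd3* and the synaptic organizers *Cbln2* and *Ppfia2*, named after their values were seen, were also lower, at log2 fold changes of −0.45, −0.40, −0.41 and −0.40. *Kcnd3* no longer passed without mouse 6 of HT + Sham (adjusted P = 0.0553).

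**Figure D3:**
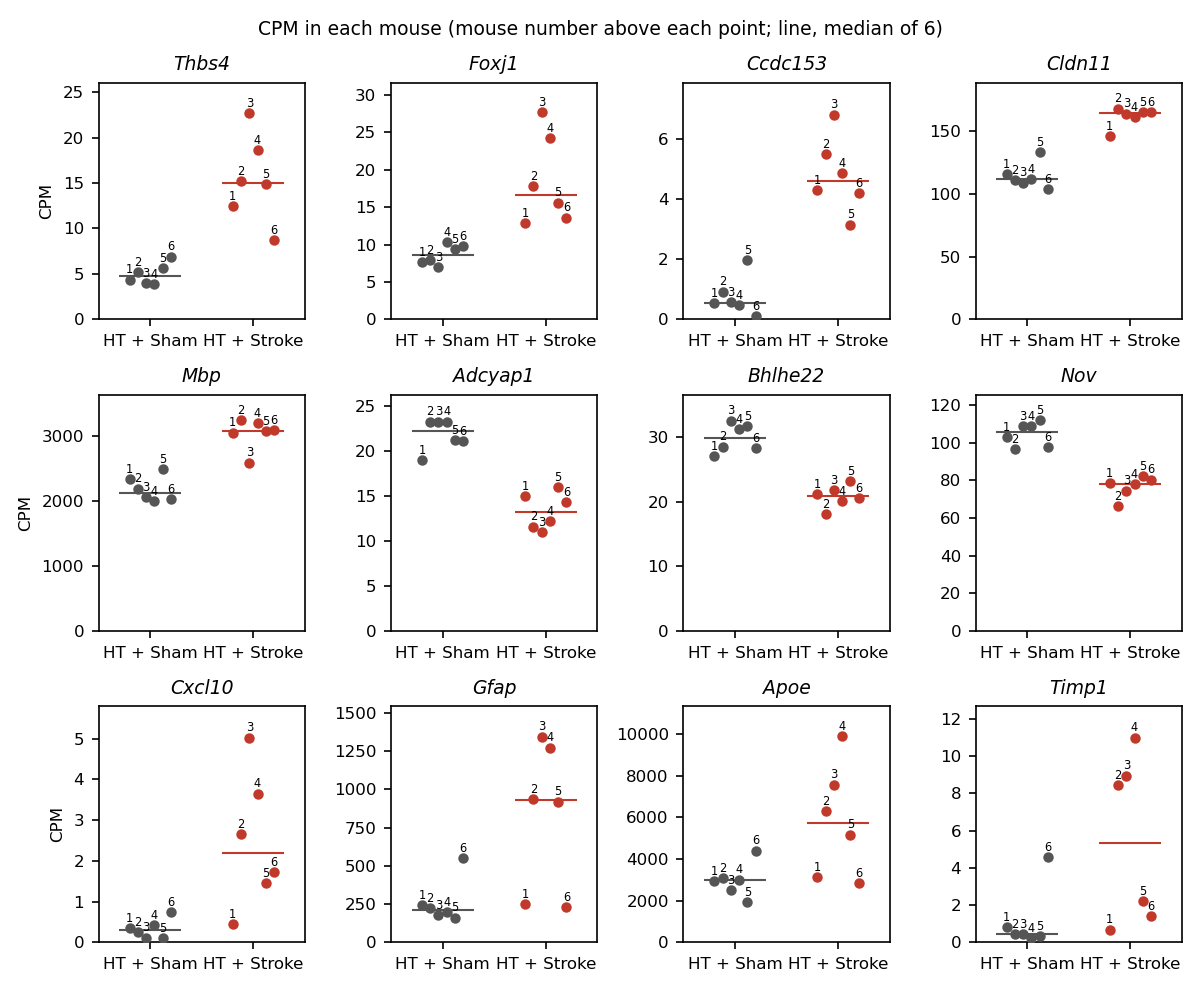
Points give the CPM (y axis, from 0) of 12 genes in each HT + Sham mouse (grey) and HT + Stroke mouse (red), with the mouse number above each point and a line at the median of 6. *Thbs4*, *Foxj1*, *Ccdc153*, *Cldn11*, *Mbp*, *Adcyap1*, *Bhlhe22* and *Nov* separate the groups in all 12 mice, whereas for *Gfap*, *Apoe* and *Timp1* stroke mice 1 and 6 lie at or near the sham mice and sham mouse 6 lies above its group.

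Lists of neuronal genes had small fold changes. Of 25 genes of synapses, 0 passed with edgeR, 9 had an unadjusted P under 0.05, DESeq2 and the 4-group fit each called 3 lower, and 22 had a fold change below 0 (median −0.15). *Gria3*, a subunit of AMPA glutamate receptors, was 154, 171 and 200 CPM in HT + Sham and 121, 137 and 155 CPM in HT + Stroke (log2 fold change −0.32, SE 0.0858, adjusted P = 0.0860). Of 18 genes of cortical excitatory neurons, 12 had a fold change below 0 (median −0.16), or 13 without mouse 6 of HT + Sham. An unadjusted P under 0.05 was found for 5, and DESeq2 and the 4-group fit each called 1 higher and 1 lower. With edgeR 1 rose, which was *Foxp2*, a transcription factor of deep cortical layers that striatal neurons also express (log2 fold change 0.80, SE 0.163, adjusted P = 0.0362). It did not pass without mouse 6 of HT + Sham (adjusted P = 0.0506). *Camk2a*, the abundant kinase of excitatory synapses, had a median of 2719 CPM in HT + Sham and 2361 CPM in HT + Stroke (log2 fold change −0.11, SE 0.0891, adjusted P = 0.557). Of 15 genes of interneurons 0 passed, 5 had an unadjusted P under 0.05, DESeq2 called 0 and the 4-group fit 1 lower (median −0.27, or −0.15 without mouse 6 of HT + Sham). *Vip*, the neuropeptide of a class of interneurons, was 33.7, 35.8 and 47.6 CPM and 24.8, 30.5 and 33.8 CPM (log2 fold change −0.29, SE 0.0977, adjusted P = 0.139).

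Genes of the injury response had large fold changes, against a median of 0.0007 over all genes, and few of them passed with edgeR in the 12 mice alone. Of 23 genes of phagocytic microglia 21 were tested, and 21 had a fold change above 0 with a median of 1.84. None passed with edgeR, 20 had an unadjusted P under 0.05, DESeq2 called 13 and the 4-group fit 19. The mean level of the list was 3.28 to 3.51 on the log2(CPM + 1) scale in the 5 sham mice, 4.71 in sham mouse 6 and 3.78 to 6.21 in stroke mice. *Lpl*, lipoprotein lipase, was 9.12, 10.9 and 12.3 CPM in HT + Sham and 14.4, 34.2 and 80.3 CPM in HT + Stroke. All 6 stroke mice were above all 6 sham mice, with mouse 5 close to them, and the gene did not pass (log2 fold change 1.84, SE 0.414, adjusted P = 0.0720). *Apoe*, the lipid carrier of glia, was 1918, 2979 and 4406 CPM and 2835, 5730 and 9905 CPM, with mice 1 and 6 within the sham range (log2 fold change 0.97, SE 0.305, adjusted P = 0.135).

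Without mouse 6 of HT + Sham, 3 of the 21 rose, of which *Cst7* and *Cd22* are named after their values were seen. *Cst7*, an inhibitor of lysosomal cathepsins, had at most 6 counts in the 5 sham mice, 56 in sham mouse 6 and 15 to 352 in stroke mice. Its log2 fold change was 3.65, adjusted P = 0.118 with mouse 6 and 6.07, adjusted P = 0.0423 without it. *Cd22*, a sialic acid receptor of microglia and B cells, moved from 3.13, adjusted P = 0.0907 to 4.37, adjusted P = 0.0383 in the same way. *Cd52*, a small surface glycoprotein of leukocytes, was 1.18, 2.78 and 2.9 CPM in the 5 sham mice, 6.31 in mouse 6 and 3.64, 10.9 and 25.4 CPM in HT + Stroke (log2 fold change 2.42, SE 0.488, adjusted P = 0.0492 without mouse 6).

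Resting microglia genes had smaller fold changes. Of 12 tested, 10 had a fold change above 0 (median 0.44), and 0 passed with edgeR, 8 at an unadjusted P under 0.05, 5 with DESeq2 and 5 in the 4-group fit. *Csf1r*, the receptor on which microglia depend, was 76.5, 86.8 and 106 CPM in HT + Sham and 83.2, 130 and 187 CPM in HT + Stroke (log2 fold change 0.54, SE 0.166, adjusted P = 0.121). Of 14 genes tested that mark macrophages other than microglia, 0 passed with edgeR, 9 at an unadjusted P under 0.05, 1 with DESeq2 and 2 in the 4-group fit (median 0.83). *Ms4a7*, which such macrophages express, was 0.428, 0.586 and 2.35 CPM and 0.574, 5.61 and 13.1 CPM (log2 fold change 2.73, SE 0.762, adjusted P = 0.110).

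Complement genes, whose products tag debris and synapses for removal, had a median log2 fold change of 1.28 over 21 tested, with 18 above 0. None passed with edgeR, 15 had an unadjusted P under 0.05, DESeq2 called 12 and the 4-group fit 13. *C1ra*, a protease of the first complement component, was 2.09, 3.2 and 4.66 CPM in HT + Sham and 3.19, 8.13 and 19.2 CPM in HT + Stroke (log2 fold change 1.61, SE 0.422, adjusted P = 0.0915). *Clu*, clusterin, an inhibitor of the terminal complex, was the 1 complement gene that rose without mouse 6 of HT + Sham (log2 fold change 0.44, SE 0.0976, adjusted P = 0.0481), at 769, 832 and 935 CPM in the 5 sham mice and 956, 1148 and 1291 CPM in stroke mice.

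Among chemokines, 2 of 14 tested rose, and 13 had a fold change above 0 (median 1.23), while DESeq2 and the 4-group fit each called 7. *Cxcl10* (ENSMUSG00000034855, chromosome 5, 92346638 to 92348889, minus strand), an interferon-induced chemokine that attracts T cells, ranged from 2 to 15 counts in sham mice and from 8 to 112 in stroke mice. Mouse 1 was the lowest stroke mouse and lay below sham mouse 6 (log2 fold change 2.88, SE 0.547, adjusted P = 0.0327). The gene lies within *Art3*, which is on the opposite strand. *Ccl12*, a chemokine for monocytes, had 6 to 19 counts and 17 to 73 counts, and in CPM the groups did not overlap (log2 fold change 1.83, SE 0.372, adjusted P = 0.0344). *Ccl3*, a chemokine made by microglia, was 0.123, 0.328 and 1.3 CPM and 0.319, 2.48 and 6.65 CPM and did not pass (log2 fold change 2.56, SE 0.713, adjusted P = 0.104). Without mouse 6, *Ccl5*, which attracts T cells and is named after its values were seen, passed as well (log2 fold change 2.74, adjusted P = 0.0492).

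Genes that present antigen shared a fold change above 0 in 18 of 18, with a median of 1.13 and 18 at an unadjusted P under 0.05, while 0 passed with edgeR, 11 with DESeq2 and 16 in the 4-group fit. Without mouse 6 of HT + Sham 2 rose. *Psmb9*, a subunit of the immunoproteasome, had a median of 2.32 CPM in the 5 sham mice and 7.08 CPM in stroke mice (log2 fold change 1.53, SE 0.294, adjusted P = 0.0382). *H2-T23*, a non-classical class I gene, had 23.5 and 38.0 CPM (log2 fold change 0.77, SE 0.162, adjusted P = 0.0465), with the limit that class I genes are near-identical copies whose reads the counting could divide. *B2m*, the shared light chain of class I molecules, was 101, 113 and 182 CPM in HT + Sham and 123, 220 and 331 CPM in HT + Stroke (log2 fold change 0.85, SE 0.253, adjusted P = 0.122). Of 25 interferon-stimulated genes tested, 23 had a fold change above 0 (median 0.79), 0 passed with edgeR, 16 had an unadjusted P under 0.05, DESeq2 called 8 and the 4-group fit 12. *Rtp4* and *Oasl2*, both induced by interferons, rose without mouse 6, with log2 fold changes of 1.01 (adjusted P = 0.0378) and 1.38 (adjusted P = 0.0443).

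Most members of the interferon, antigen presentation and cholesterol lists shared the sign of their fold change, and elements that such genes hold are known. Promoters of *Cxcl10*, *H2-T23* and *Hmgcs1* that hold such an element are shown. *Cxcl10* is in none of these lists and is not among the genes counted below. Most antigen presentation and cholesterol genes counted lacked the element shown. The promoters run from 250 bases before to 50 bases after the start of the RefSeq gene on GRCm38.p6, 5′ to 3′ on the strand of the gene. Capitals mark GAAANNGAA, the core of the interferon response element, in the chemokine and class I promoters, and TCACNCCAC, the sterol response element, in that of *Hmgcs1*, on either strand.
Cxcl10 (chr5:92348840-92349139, minus strand): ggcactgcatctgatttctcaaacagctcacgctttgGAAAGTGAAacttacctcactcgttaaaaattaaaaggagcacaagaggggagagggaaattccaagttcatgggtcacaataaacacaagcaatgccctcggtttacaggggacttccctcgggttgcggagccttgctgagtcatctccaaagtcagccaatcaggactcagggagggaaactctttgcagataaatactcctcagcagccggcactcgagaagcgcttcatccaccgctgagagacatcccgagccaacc
H2-T23 (chr17:36032652-36032951, minus strand): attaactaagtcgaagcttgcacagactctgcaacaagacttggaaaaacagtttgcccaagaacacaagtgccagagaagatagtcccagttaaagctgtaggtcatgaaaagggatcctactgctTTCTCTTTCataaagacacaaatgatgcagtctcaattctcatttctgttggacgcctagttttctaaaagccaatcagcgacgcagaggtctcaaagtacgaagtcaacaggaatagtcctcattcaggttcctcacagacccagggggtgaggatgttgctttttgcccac
Hmgcs1 (chr13:119690101-119690400, plus strand): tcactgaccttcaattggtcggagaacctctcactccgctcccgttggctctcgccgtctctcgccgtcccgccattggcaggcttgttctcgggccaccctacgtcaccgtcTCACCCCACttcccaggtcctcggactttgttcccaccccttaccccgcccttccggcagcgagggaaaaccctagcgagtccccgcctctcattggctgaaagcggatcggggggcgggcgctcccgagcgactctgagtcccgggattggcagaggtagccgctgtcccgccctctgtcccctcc
GAAANNGAA was found in the promoters of 14 of 18 interferon-stimulated genes that the RefSeq table holds (of 26 listed), in 2 of 13 antigen presentation genes (*H2-T23* and *B2m*), and in 8.56% of all 32851 promoters. TTCNNNGAA, the core bound by STAT factors, which can overlap it, was found in 6 of the 18 and 1 of the 13, and in 8.30% of all. TCACNCCAC was found in 1 of 13 cholesterol genes and 1.24% of all promoters, and GTCACGTG, the element of lysosomal genes, in 4 of 21 lysosomal genes, 3 of 13 cholesterol genes and 2.25% of all. A list gene was counted if any of its promoters held the motif, whereas the shares of all are over single promoters, so the 2 are not the same measure. These matches describe letters and are not tests of binding.

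Reactive astrocyte genes included 3 that rose of 34 tested, with 30 above 0 and a median of 1.15, while DESeq2 called 17 and the 4-group fit 20. *Cd109*, a membrane protein that binds the growth factor TGF-beta, ranged from 1 to 24 counts in sham mice and from 23 to 82 in stroke mice, and in CPM the groups did not overlap (log2 fold change 2.06, SE 0.393, adjusted P = 0.0302). *Tm4sf1*, a small membrane protein that endothelium also makes, was 10.7, 12.5 and 13.9 CPM and 13.9, 18.9 and 25 CPM (log2 fold change 0.63, SE 0.137, adjusted P = 0.0490), and *Cxcl10* was the third. *Gfap* was 162, 210 and 550 CPM in HT + Sham and 231, 927 and 1344 CPM in HT + Stroke and did not pass (log2 fold change 1.69, SE 0.514, adjusted P = 0.135), with a log2 fold change of 2.06, adjusted P = 0.0717 without mouse 6 of HT + Sham. *Timp1*, an inhibitor of metalloproteinases, was 0.241, 0.448 and 4.56 CPM and 0.683, 5.33 and 11 CPM, where mouse 6 held the highest sham value (log2 fold change 2.22, SE 0.875, adjusted P = 0.229). Its log2 fold change without that mouse was 3.58, adjusted P = 0.0611. *Tm4sf1* did not pass without it (adjusted P = 0.0523), and *H2-T23*, which this list also holds, did. *Timp1* lies within *Syn1*, a neuronal gene on the opposite strand, and *Tgm1*, *Cd52*, *H2-T23*, *B2m*, *Bcas1* and *Ctsb* also overlap a gene on the opposite strand. Of 16 genes of resting astrocytes, 0 passed with edgeR, 2 had an unadjusted P under 0.05, and DESeq2 and the 4-group fit called 0 (median 0.05).

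**Figure D4:**
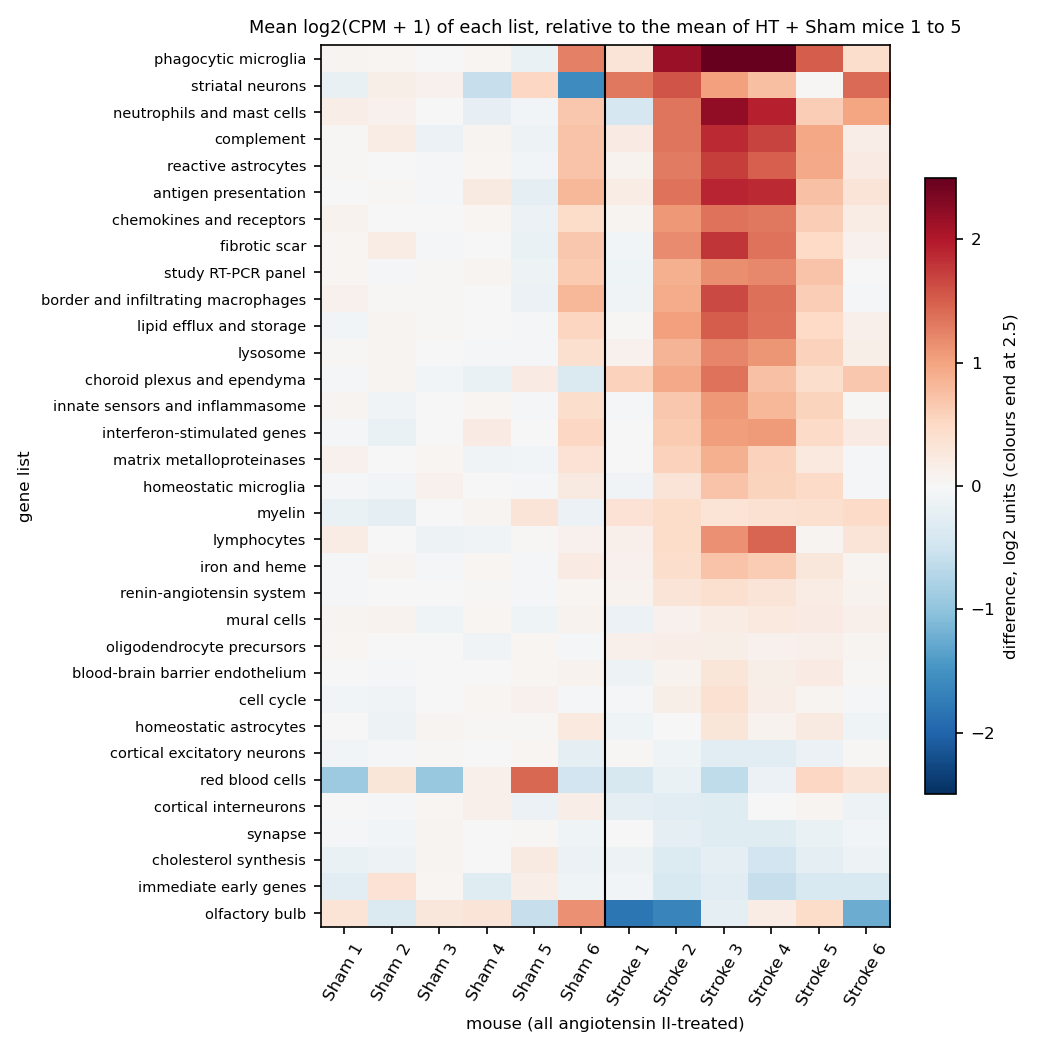
Colours give the mean log2(CPM + 1) of the tested members of each of 33 gene lists (y axis) in each angiotensin II-treated mouse (x axis), as the difference in log2 units from the mean of HT + Sham mice 1 to 5. Sham mouse 6 is red and stroke mice 1 and 6 are pale for most injury-related lists at the top, while myelin is red in all 6 stroke mice, with mean levels of 6.88 to 7.02 against 6.32 to 6.86 in the 5 sham mice.

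All 24 genes of the fibrotic scar, which encode collagens and other matrix proteins, had a fold change above 0 (median 0.83), and 0 passed with edgeR, 16 at an unadjusted P under 0.05, 5 with DESeq2 and 7 in the 4-group fit. *Sparc*, a collagen-binding matrix protein, was 190, 218 and 300 CPM in HT + Sham and 201, 358 and 471 CPM in HT + Stroke (log2 fold change 0.61, SE 0.203, adjusted P = 0.147). Of 12 metalloproteinase and inhibitor genes tested, 0 passed with edgeR, 4 had an unadjusted P under 0.05, and DESeq2 and the 4-group fit each called 1 (median 0.16). *Mmp14*, a membrane-bound collagenase, was 11.1, 12.7 and 23.9 CPM and 13, 34 and 62.9 CPM (log2 fold change 1.25, SE 0.406, adjusted P = 0.152).

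Vessel genes had median fold changes near 0. Of 18 endothelial barrier genes, 0 passed with edgeR, 3 had an unadjusted P under 0.05, DESeq2 called 1 and the 4-group fit 2, with a median of 0.07. *Cdh5*, the adherens junction protein of endothelium, was 11.3, 12.5 and 13.7 CPM in HT + Sham and 9.84, 16 and 20.5 CPM in HT + Stroke (log2 fold change 0.35, SE 0.143, adjusted P = 0.227). Of 12 mural cell genes, 0 passed with edgeR, 2 had an unadjusted P under 0.05, DESeq2 called 0 and the 4-group fit 1 (median 0.13). For both lists the count at an unadjusted P was near the share of all genes, 17.0%. *Pdgfrb*, the growth factor receptor of pericytes, was 18.6, 20.4 and 23.2 CPM and 19.2, 27.3 and 36.6 CPM (log2 fold change 0.41, SE 0.127, adjusted P = 0.118). Of 10 genes tested of the renin-angiotensin system, 0 passed with edgeR, 3 had an unadjusted P under 0.05 (5 without mouse 6 of HT + Sham), DESeq2 called 2 and the 4-group fit 3 (median 0.24). *Ace*, the converting enzyme that makes angiotensin II, was 12.6, 13.3 and 19.4 CPM and 18.3, 19.8 and 26 CPM (log2 fold change 0.51, SE 0.123, adjusted P = 0.0673).

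The lists of cholesterol synthesis and of lipid efflux had fold changes of opposite sign. Of 20 genes of cholesterol synthesis, 20 had a fold change below 0 (19 without mouse 6 of HT + Sham, median −0.22), and 0 passed with edgeR, 9 at an unadjusted P under 0.05, 2 with DESeq2 and 3 in the 4-group fit. *Hmgcs1*, an early enzyme of this synthesis, was 151, 184 and 233 CPM in HT + Sham and 123, 145 and 166 CPM in HT + Stroke (log2 fold change −0.34, SE 0.113, adjusted P = 0.135). *Sqle*, squalene epoxidase, fell without mouse 6 of HT + Sham, from 47.5, 55.9 and 63.9 CPM in the 5 sham mice to 35.6, 40.9 and 44.1 CPM in stroke mice (log2 fold change −0.40, SE 0.0871, adjusted P = 0.0473). Of 18 genes tested for lipid efflux and storage, 17 had a fold change above 0 (median 0.83), with 0 passing by edgeR, 16 at an unadjusted P under 0.05, 7 by DESeq2 and 12 in the 4-group fit. *Nr1h3*, the sterol-sensing receptor LXR alpha, was 3.26, 3.81 and 5.46 CPM and 4.92, 6.13 and 8.16 CPM (log2 fold change 0.61, SE 0.169, adjusted P = 0.0907).

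Of 26 lysosomal genes tested, 25 had a fold change above 0 (median 0.60), and 0 passed with edgeR, 24 at an unadjusted P under 0.05, 17 with DESeq2 and 20 in the 4-group fit. *Gusb*, a lysosomal glucuronidase, rose without mouse 6 of HT + Sham (log2 fold change 0.85, SE 0.184, adjusted P = 0.0488), at 13.1, 16.5 and 16.9 CPM in the 5 sham mice and 18.7, 27.6 and 41.8 CPM in HT + Stroke. *Ctsb*, a cathepsin, was 584, 607 and 668 CPM and 630, 917 and 1248 CPM (log2 fold change 0.57, SE 0.145, adjusted P = 0.0789). Of 17 innate sensors and inflammasome genes tested, all 17 were above 0 (median 0.79), with 0 passing by edgeR, 12 at an unadjusted P under 0.05, 3 by DESeq2 and 5 in the 4-group fit. *Gsdmd*, the pore protein of pyroptosis, was 2.83, 4.18 and 4.66 CPM and 3.63, 7.17 and 12 CPM (log2 fold change 0.92, SE 0.258, adjusted P = 0.0946).

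Most genes of lymphocytes and neutrophils had low counts. Of 28 lymphocyte genes 8 could be tested, and 0 passed with edgeR, 2 at an unadjusted P under 0.05 (5 of 9 tested without mouse 6 of HT + Sham, against 17.8% of all genes), and 1 each with DESeq2 and in the 4-group fit. *Cd3e*, which defines T cells, ranged from 0 to 14 counts in sham mice and from 3 to 24 in stroke mice, and *Ms4a1*, a marker of B cells, had 0 to 2 and 0 to 8. Of 15 genes of neutrophils and mast cells 3 could be tested, and 0 passed with edgeR, 3 at an unadjusted P under 0.05, and 1 each with DESeq2 and in the 4-group fit. *Ly6g*, which defines neutrophils, had 0 counts in every sham mouse and 0 to 2 in stroke mice. Of 5 red blood cell genes tested 0 passed with edgeR, 0 had an unadjusted P under 0.05, and DESeq2 and the 4-group fit called 0. *Hbb-bs*, adult beta globin, was 22.3, 42.8 and 146 CPM in HT + Sham and 26.5, 44.6 and 78.8 CPM in HT + Stroke (log2 fold change −0.18, SE 0.483, adjusted P = 0.895). Near-identical globin genes may share its reads. Without sham mouse 5, the highest of its group, its fold change turned positive. None of 17 cell cycle genes tested passed with edgeR, 2 at an unadjusted P under 0.05, and 1 each with DESeq2 and in the 4-group fit.

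A panel of glial genes was also measured by RT-PCR in the study, which chose it, so counts over it are not independent evidence of a direction. Of its 13 genes 11 could be tested, and 0 passed with edgeR, 8 at an unadjusted P under 0.05, 3 with DESeq2 and 5 in the 4-group fit. By RT-PCR the study reported *Srgn* and *Tgm1* as higher in HT + Stroke than in HT + Sham. It also reported *Serping1*, *Psmb8*, *Srgn* and *Gbp2* as raised by stroke at both pressures, and a stroke effect on *Cd14* and *Clcf1*. No change was reported for *Tnf*, *Nos2*, *Il4*, *Arg1* and *Fam19a3*. RT-PCR and read counts are unlike measures. *Tgm1*, a transglutaminase, was 0.058, 0.27 and 1.6 CPM in HT + Sham and 0.512, 7.77 and 12.1 CPM in HT + Stroke, with mouse 1 lowest among stroke mice and below sham mouse 6 (log2 fold change 3.84, SE 0.972, adjusted P = 0.0911). *Serping1*, the inhibitor of the first complement component, was 9.68, 11.7 and 29 CPM and 12.8, 35.7 and 76.6 CPM (log2 fold change 1.47, SE 0.491, adjusted P = 0.163). *Fam19a3*, a secreted protein of the chemokine-like family, was 0.963, 1.68 and 4.96 CPM and 0.171, 0.857 and 2.31 CPM (log2 fold change −0.90, SE 0.559, adjusted P = 0.440). All 6 stroke mice lay below sham mouse 6, and with the striatal covariate the fold change turned to the other sign. *Psmb8*, an immunoproteasome subunit, was 3.53, 5.11 and 8.46 CPM in HT + Sham and 4.97, 10.6 and 25.6 CPM in HT + Stroke (log2 fold change 1.17, SE 0.378, adjusted P = 0.141). *Srgn*, serglycin, a proteoglycan of immune cell granules, was 9.84, 11.9 and 14.4 CPM and 8.7, 15.6 and 23.5 CPM (log2 fold change 0.44, SE 0.220, adjusted P = 0.328). *Gbp2*, an interferon-induced GTPase, was 2.03, 2.7 and 5.66 CPM and 3.36, 6.37 and 11.2 CPM (log2 fold change 1.06, SE 0.315, adjusted P = 0.112). In each of these 3 genes the stroke mice overlapped with the sham mice.

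*Cd14*, a co-receptor for bacterial lipids, was 2.2, 2.81 and 5.16 CPM in HT + Sham and 2.33, 7.05 and 12.1 CPM in HT + Stroke (log2 fold change 1.14, SE 0.358, adjusted P = 0.127). *Clcf1*, a cytokine of the interleukin 6 family, was 2.29, 3.2 and 4.86 CPM and 2.93, 5.81 and 6.56 CPM (log2 fold change 0.67, SE 0.223, adjusted P = 0.135). *Stat3*, the transcription factor downstream of such cytokines, was 44.8, 50.5 and 60.3 CPM and 47.2, 63.7 and 74.2 CPM (log2 fold change 0.25, SE 0.111, adjusted P = 0.258). These genes, too, did not pass. *Nos2*, inducible nitric oxide synthase, had 10 to 21 counts and 2 to 26 counts per mouse (log2 fold change −0.17, SE 0.374, adjusted P = 0.871), and *Il4*, the cytokine interleukin 4, had 147 to 249 and 168 to 214 (log2 fold change −0.26, SE 0.115, adjusted P = 0.261). The fold change of *Nos2* turned positive without stroke mouse 1. *Tnf*, the inflammatory cytokine, had 0 to 1 counts per sham mouse and 2 to 19 per stroke mouse, too few to test. The mean CPM of HT + Stroke was 2.66-fold that of a floor of 3 counts in each sham library. This ratio of means was not tested, and the lowest stroke mouse, at 2 counts, lay under the floor. *Arg1*, the arginase of repair macrophages, had 1 to 6 and 0 to 10 counts and was not tested.

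In normotensive mice the same contrast, NT + Stroke vs NT + Sham, gave 4365 of 16835 genes (25.9%) with an adjusted P under 0.05. Of the 108 genes that changed in hypertensive mice 67 (62.0%) were among them, all with the same sign, and these were 1.56% of the 4308 genes changed in NT that were tested in HT. Of those 4308 genes, 86.4% had the same sign in the hypertensive comparison. The same share over all genes tested in both is not given here, so 86.4% is not read as particular to these genes. Across 16550 genes tested in both, the log2 fold changes had a Pearson correlation of 0.69, and of 0.77 without mouse 6 of HT + Sham, as a description over genes, which are not independent. The 2 comparisons share no mouse.

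Named genes differed in how they stood in the other comparison. *Gfap* had a log2 fold change of 2.39, SE 0.138, adjusted P = 8.86e-08 in NT, and 1.69 in HT. *Cst7* had 5.82, SE 0.501, adjusted P = 2.54e-06 in NT, against 3.65 in HT and 6.07 without sham mouse 6. *Mag*, which passed in HT, had 0.26, SE 0.0989, adjusted P = 0.0585 in NT. *Slc4a11* was 0.25, SE 0.286, adjusted P = 0.587 in NT, and *Npas4* was 0.12, SE 0.209, adjusted P = 0.741 in NT. Of the 15 myelin genes, 6 rose in NT as well, the same number as in HT, and 15 had a fold change above 0. In the list of choroid plexus and ependyma, 3 of 8 genes tested in NT rose. These counts stand against 25.9% of all genes in NT. The median of the myelin list was 0.20 in NT and 0.49 in HT, and that of the olfactory bulb 1.19 and −0.75. For phagocytic microglia it was 2.51 over 23 genes tested in NT and 1.84 over 21 in HT.

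The difference between the 2 stroke effects was tested as the interaction of angiotensin II and stroke over all 24 libraries. Of 17608 genes 0 (0.00%) passed with edgeR, with a smallest adjusted P of 0.262, and DESeq2 called 22. An unadjusted P under 0.05 was found for 1836 genes, where 880.4 would be expected, and for 1220 genes without mouse 6 of HT + Sham, where 887.4 would be expected. For *Gfap* the difference, HT minus NT, was −0.71, SE 0.529, unadjusted P = 0.193. For *Npas4* it was −0.81, SE 0.256, unadjusted P = 0.00411, for *Slc4a11* 1.03, SE 0.374, unadjusted P = 0.0101, and for *Vtn*, vitronectin, a matrix protein that pericytes make, −0.43, SE 0.151, unadjusted P = 0.00763. No gene can therefore be called different between normotensive and hypertensive mice by edgeR at this threshold, and the test does not show that the effects were alike.

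**Figure D5:**
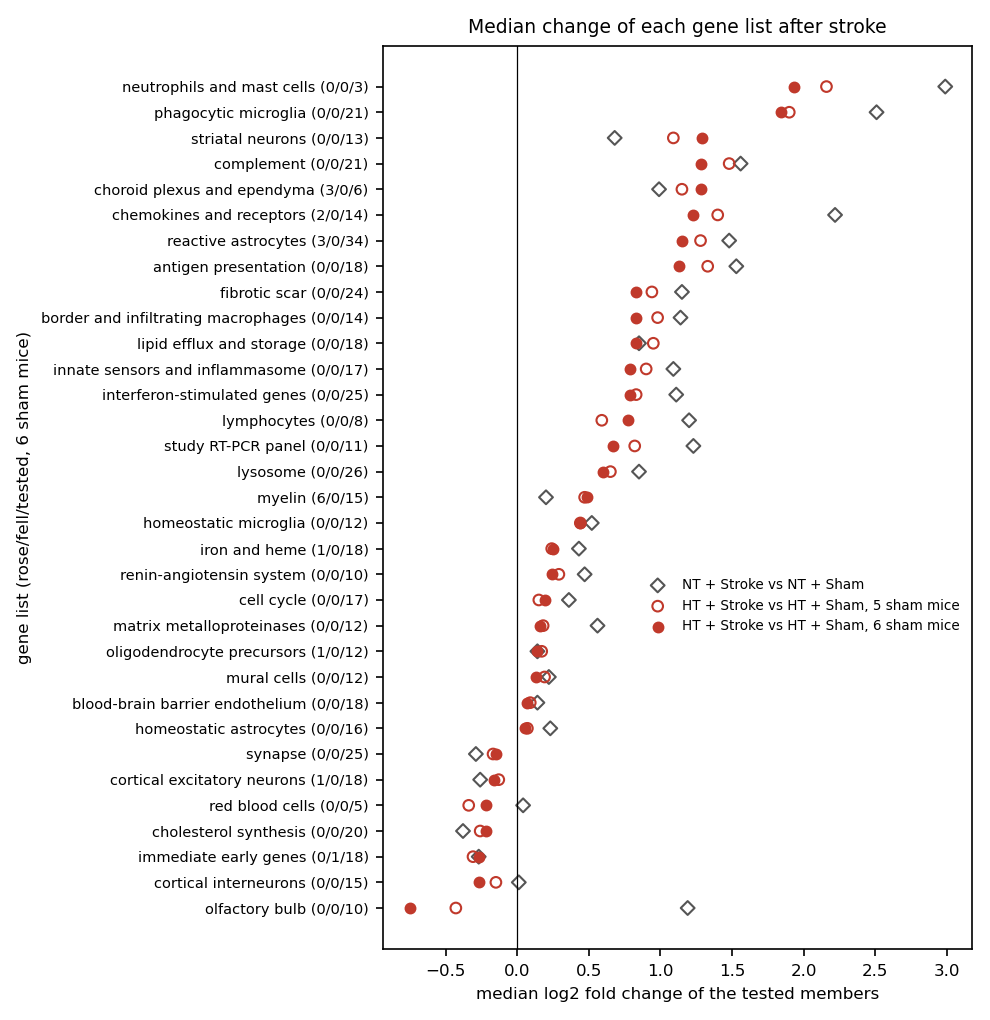
Points give the median log2 fold change (x axis) over the tested members of each gene list (y axis, with the number that rose, fell and were tested) for HT + Stroke vs HT + Sham with 6 sham mice (filled red) and with 5 (open red), and for NT + Stroke vs NT + Sham (grey diamonds). The list of phagocytic microglia lies further right in NT, at 2.51 against 1.84 in HT (1.90 with 5 sham mice), while the striatal, ependymal and myelin lists lie further right in HT. Each fit tested its own genes, so some medians are over unlike members. The ependymal list had 6 genes tested in HT (median 1.28), 7 with 5 sham mice (1.15) and 8 in NT (0.99).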

How the data were processed

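Poly(A) RNA of 24 coronal brain sections was sequenced by the authors, who deposited counts per gene and FPKM values for each library. The submitters' processing notes name featureCounts 1.5.0-p3 and DESeq2 1.20.0, while the aligner, genome build and strand of counting are not given in the sources used here. Positions equal those of GENCODE M21 on GRCm38 for 690 of 722 genes described. The deposited tables also hold 8 group means and the authors' own fold changes and P values, which were not used, nor were 96 columns of single libraries that hold normalised counts or repeat a library of another table.

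Tables were joined on gene ID, with a missing gene set to 0 (31034 genes are listed for HT + Sham, 31672 for HT + Stroke and 29928 for both). Genes were kept by filterByExpr (minimum count 10, total 15), scaled by TMM and tested with edgeR's robust quasi-likelihood test (version 4.0.16, R 4.3.3, two-sided), with Benjamini-Hochberg adjustment over all genes. CPM values use TMM over 24 libraries, and the SE is the log2 fold change divided by the root of F. DESeq2 1.42.0 and limma 3.58.1 on log2(FPKM + 1) were alternatives, and the code was tested on simulated data. No batch or date is given, and no 2 libraries were identical. Read counts hold no molecular identifiers, so floors of 3 counts per library cover counting error only.

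The members, 33 gene lists and tests were chosen with earlier results of these data known. Genes were named by this rule: the 12 largest increases and up to 12 decreases (8 were found) among genes that passed with and without mouse 6 of HT + Sham, had a mean log2 CPM above 1 and did not overlap with the other 5 sham mice. For each list the 3 members with the smallest P and the member with the highest CPM were added, as were the RT-PCR panel and defining genes near 0. Any other gene is said to be named after its values were seen. Results for some genes are not reported here.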

Additional observations from a re-analysis of the deposited data

Results flagged for a closer look

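Among 302 groups of 6 mice checked for a single distant value, 25 had a gap between the extreme mouse and its neighbour above Dixon's 95% critical value, as a share of the range of the group, where chance gives about 1 in 20 groups. In 14 of the 25 the distant value was the highest HT + Sham mouse and was mouse 6. The gap over the range was 0.864 for *Timp1*, 0.863 for *Cd36*, 0.857 for *Slc11a1* and 0.808 for *Csf3r*. It was 0.795 for *Gfap*, 0.769 for *Serping1*, 0.758 for *Tgm1*, 0.734 for *Rtp4* and 0.705 for *Anpep*. It was 0.675 for *Sp8*, 0.665 for *Cd52*, 0.648 for *Fam19a3*, 0.63 for *Sparc* and 0.627 for *Ms4a7*. These genes are known from several cell types, among them astrocytes, macrophages and fibroblasts, and share that sham mouse 6 alone was high.

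Mouse 5 of HT + Sham was highest for 2 globin genes, *Hbb-bt* (0.733) and *Hbb-bs* (0.69), for *Alas2*, the heme synthesis enzyme of red cells (0.815), and for *Cnp* (0.673). Mouse 4 of HT + Sham was highest for *Vip* (0.821). In HT + Stroke, mouse 4 was highest for *Ighm*, the heavy chain of immunoglobulin M, at 112 CPM (0.927). Mouse 2 was highest for the mural cell channel gene *Kcnj8* (0.753), mouse 3 for *Prkcd* (0.694) and mouse 6 for *Il4* (0.636). Mouse 3 was lowest for *Mbp* (0.704) and mouse 1 was lowest for *Cldn11* (0.688).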

How the results depend on the processing

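The count of 108 genes was 889 with DESeq2 (677 higher, 212 lower), 1125 with all 4 groups in one fit (839 and 286), 172 with all genes that had at least 1 count (145 and 27), and 67 when scaled by library size alone (59 and 8). It was 68 by limma on log2(FPKM + 1), with 6 lower, and 8 were lower with a pseudocount of 0.1. It was 37 without mouse 6 of HT + Sham and mouse 3 of HT + Stroke (32 and 5), 3 with the striatal covariate (2 and 1), and 2842 at an unadjusted P under 0.05 (1754 and 1088). Leaving out each mouse in turn gave 9 to 533 genes, 6 to 451 higher and 2 to 82 lower. The 28 genes changed at least 2-fold were 334 with DESeq2, 53 with all genes that had a count, 14 with at least 10 counts in every library, and 3 to 223 with each mouse left out. The 150 genes without mouse 6 of HT + Sham were 1103 with DESeq2, 249 with all genes that had a count, 76 by library size and 0 with the striatal covariate (edgeR). Leaving out a stroke mouse as well gave 934 (mouse 1), 2 (mouse 2), 37 (mouse 3), 2 (mouse 4), 238 (mouse 5) and 637 (mouse 6). The interaction, with 0 genes by edgeR, gave 22 with DESeq2 and 1836 at an unadjusted P under 0.05. The count for NT + Stroke vs NT + Sham stayed within 1.5 times under every alternative tried. The striatal covariate, which itself was higher in most stroke mice than in sham mice, and the further omissions of stroke mice were chosen after seeing the data. The causes were not tested.

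Of single-gene values under all alternatives, 2898 kept direction and side of the threshold, 257 no longer passed, 202 newly passed and 25 reversed sign, all in genes that did not pass. *Cx3cl1* reversed to 0.00 with at least 10 counts in every library, 0.02 by limma at both pseudocounts and 0.05 without mouse 6 of HT + Sham and mouse 3 of HT + Stroke, and lay between −0.06 and 0.06 with a mouse left out. *Hbb-bs* reversed to 0.09 by limma at both pseudocounts and to 0.06 with the block described next. With a mouse left out, *Hbb-bs* lay between −0.37 and 0.36, *Hbb-bt* between −0.68 and 0.22 and *Alas2* between −0.76 and 0.26, above 0 only without sham mouse 5. *Mmp17* lay between −0.12 and 0.03, above 0 without sham mouse 2 or stroke mouse 3, and *Nos2* between −0.48 and 0.04, above 0 without stroke mouse 1. With the striatal covariate *Doc2g* was 0.95, *Fam19a3* 0.70, *Nos2* 0.48, *Sp8* 0.37, *Slc6a11* 0.33, *Slc2a1* 0.05 and *Slc1a2* −0.05. *Slc2a1* was 0.02 without mouse 6 of HT + Sham and mouse 3 of HT + Stroke.

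The labels give no replicate numbers, but the libraries are numbered in the tables. With that number as a replicate block, chosen after seeing the data, 46 genes passed (40 higher, 6 lower, 12 at least 2-fold), against 108 without the block. Libraries with the same number did not all deviate from their group means together: the correlations over genes ran from −0.50 to 0.24, 3 of 6 were over 0.1, and 5 of 12 libraries correlated best with their own number. The number was therefore not taken to pair mice. Depth limited the genes with few counts, such as *Tnf* and most lymphocyte genes, which could not be tested.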
